A study of Mus musculus with 16 samples.

Results

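The interferon regulatory factors (IRFs) are DNA-binding proteins that switch on, or hold back, the genes of the interferon response. The 8 genes described here, Irf1, Irf2, Irf3, Irf4, Irf5, Irf7, Irf8 and Irf9, were chosen by name from the 21851 protein-coding genes of the GENCODE M21 annotation (mm10) on chromosomes 1 to 19, X and Y, and all 8 were found. For each gene, the gene body with 5 kb on either side (the gene window) and the promoters (1 kb on either side of each start site of a protein-coding transcript) were searched for peaks of 3 histone marks in young and aged hematopoietic stem cells (HSCs). HSCs came from the bone marrow of female C57BL/6 mice and were sorted as CD150+ CD48- CD34- Flt3- cells within the c-kit+ Sca-1+ Lin- IL-7Rα- fraction. Young mice were 10 weeks old and aged mice 20 months old. The labels name no transgene or treatment for either group, and the number of mice behind each library is not given in the sources used here. Each mark was profiled in 2 libraries per age, and 2 input libraries were made per age (16 libraries, 8 groups). The deposited peaks came as a single pooled list per mark and age, without values for the replicates. The counts below therefore describe 6 lists, and no difference between ages was tested.

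IRFs recognise the interferon-stimulated response element (ISRE), a pair of GAAA repeats, through a DNA-binding domain that the whole family shares. Irf3 and Irf7 act below the sensors of foreign nucleic acid and start interferon production, Irf9 is the DNA-binding part of the complex that carries the interferon signal to the nucleus, and Irf1 and Irf2 are an activator and its antagonist at the same sites. Irf4, Irf5 and Irf8 are best known from lymphocytes, macrophages and dendritic cells, and Irf8 directs stem and progenitor cells towards monocytes and dendritic cells. Of the marks, H3K4me3 lies at active and poised promoters, whereas H3K27me3 and H2AK119ub1 are laid down by the Polycomb repressive complexes. A promoter with H3K4me3 and H3K27me3 together is termed bivalent.

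In young HSCs, 7 of the 8 genes had an H3K4me3 peak at the promoter, the exception being Irf5, against 33.8% of all protein-coding genes. In aged HSCs, 3 of the 8 (Irf2, Irf3 and Irf9) had one, against 23.3%. H3K27me3 lay at the promoters of Irf4, Irf5 and Irf8 in young HSCs (3 of 8, against 16.0%) and at none of the 8 in aged HSCs (8.24% of all genes). H2AK119ub1 lay at the Irf8 promoter alone in young HSCs (1 of 8, against 1.91%) and at the promoters of Irf1, Irf2, Irf4, Irf5 and Irf8 in aged HSCs (5 of 8, against 14.0%). The genes thus fell into those with H3K4me3 at both ages (Irf2, Irf3, Irf9), those with H3K4me3 in young HSCs and no Polycomb mark at that age (Irf1, Irf7), and the 3 genes with young H3K27me3.

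**Figure D1:**
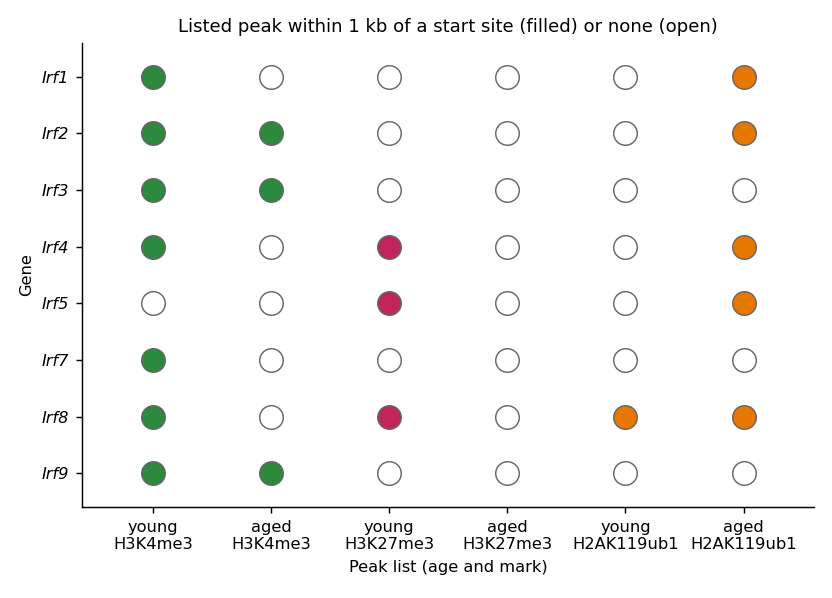
Presence of a listed peak within 1 kb of a start site for each of the 8 genes (rows) in each of the 6 pooled lists (columns). A filled circle is a listed peak and an open circle none. The aged H3K27me3 column is empty, and the young H3K4me3 column is filled for all genes but Irf5.

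These directions follow those of the whole lists. The young lists held more peaks than the aged lists for H3K4me3 (11371 against 6723) and H3K27me3 (63142 against 20419), and fewer for H2AK119ub1 (2593 against 17768). With the same number of top-ranked peaks kept at both ages, H3K4me3 was at 6 promoters in young HSCs (all of the former 7 but Irf1) and 3 in aged HSCs. H3K27me3 was then at none of the 8 promoters at either age, and H2AK119ub1 at 1 promoter at each age (Irf8 in young, Irf4 in aged). No H3K27me3 or H2AK119ub1 region at the 8 genes reached a −log10 q-value of 3. In the whole lists, 7708 of 63142 young H3K27me3 regions and 898 of 17768 aged H2AK119ub1 regions did. The 8 gene windows held 6 and 11 regions of these lists, too few to be told apart from those shares. The part that the size of the lists plays in the Polycomb pattern was not tested.

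**Figure D2:**
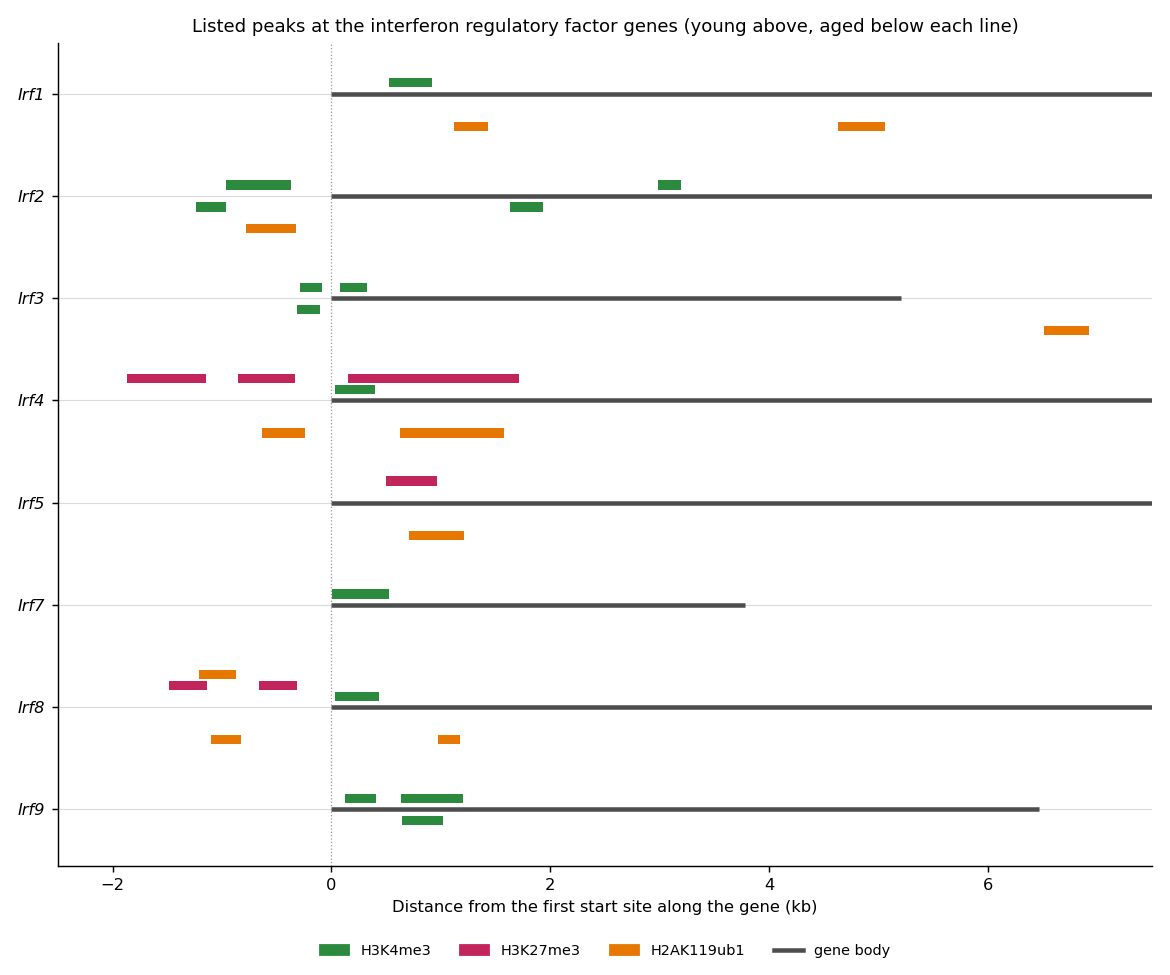
Listed peaks by distance from the first start site along each gene (x axis, kb), with young peaks above and aged peaks below each gene line and the colour giving the mark. Peaks beyond 7.5 kb are not drawn, namely 1 young H3K4me3 peak in Irf2 and 2 aged H2AK119ub1 regions in the Irf8 window. Aged H2AK119ub1 lies over young H3K27me3 at Irf4 and Irf5.

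Over the gene windows the same genes carried each mark, except that aged H2AK119ub1 also reached the Irf3 window (6 of 8). Of all gene windows, 40.6% held a young and 29.0% an aged H3K4me3 peak. The shares were 27.8% (young) and 16.5% (aged) with H3K27me3, and 5.99% (young) and 29.0% (aged) with H2AK119ub1. The 8 windows span 264860 bp and held 11 young and 4 aged H3K4me3 peaks, 6 young and 0 aged H3K27me3 regions, and 1 young and 11 aged H2AK119ub1 regions. Young H3K4me3 covered 1.51% of the bases in these windows, against 0.385% over the windows of all genes, and aged H3K4me3 0.432% against 0.205%. Young H3K27me3 covered 1.50% against 2.16%, so its share of bases at these genes was below that of all genes although its share of promoters was above. Aged H2AK119ub1 covered 1.72% against 0.527%.

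Irf8 had peaks in 4 of the 6 lists at the promoter, more than any other member. The young H3K4me3 peak (chr8:120736390-120736796) began 32 bp downstream of the first start site, with 5.31-fold enrichment and 24 reads at its summit over a background of 3.70 reads. Upstream of it lay a young H3K27me3 region (chr8:120735699-120736041, 2.96-fold) and, further away, a second one (chr8:120734873-120735218, 2.86-fold), which ended 1140 bp before the start site and so lay just outside the promoter. A young H2AK119ub1 region (chr8:120735149-120735486, 3.44-fold) overlapped the latter by 70 bp. In aged HSCs neither H3K4me3 nor H3K27me3 was listed in the Irf8 window. H2AK119ub1 was listed there 4 times. The first of these (chr8:120735260-120735536, 3.46-fold) shared 227 bp with the young region, and its fold enrichment was close to that of the young region. The second (chr8:120737331-120737530, 3.45-fold) lay in an intron 973 bp from the first start site, just inside the promoter. The other 2 lay in an intron at chr8:120750135-120750442 (2.99-fold) and past the gene's end at chr8:120761178-120761489 (3.21-fold). All of these Irf8 peaks also lay in introns of Gm20388, a long gene that spans Irf8. The 227 bp were the only Polycomb-marked stretch of the 8 genes that the same mark covered at both ages, and they are printed here for that reason, on the plus strand with CpG sites in capitals. The stretch holds 2 CpG sites and has a GC share of 39.6%, and it overlaps no annotated exon.
Irf8, chr8:120735260-120735486: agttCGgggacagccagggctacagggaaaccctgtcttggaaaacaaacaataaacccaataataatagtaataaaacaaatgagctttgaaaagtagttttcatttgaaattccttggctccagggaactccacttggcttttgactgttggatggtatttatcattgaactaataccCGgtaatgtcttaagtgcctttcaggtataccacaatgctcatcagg

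Irf4, which lymphocytes need for activation and for plasma cell formation, had H3K4me3 and H3K27me3 side by side in young HSCs. The H3K4me3 peak (chr13:30749259-30749621, 5.04-fold, 24 reads over 3.96) began 33 bp downstream of the only start site, over the UTR and beyond. Of 3 young H3K27me3 regions, the widest (chr13:30749379-30750938, 1560 bp, 3.20-fold) covered UTR and coding exon and overlapped the H3K4me3 peak by 243 bp. The other 2 lay upstream in intergenic sequence at chr13:30748371-30748891 (3.07-fold) and chr13:30747358-30748078 (3.39-fold), the latter 1148 bp from the start site and so just outside the promoter. In aged HSCs only H2AK119ub1 was listed, in 2 regions on either side of the start site. These lay at chr13:30748595-30748986 (3.85-fold, with a −log10 q-value above that of 92.8% of its list) and chr13:30749850-30750798 (3.38-fold). Together they shared 1246 bp with the young H3K27me3 regions, out of 1341 bp of aged H2AK119ub1. The upstream stretch common to both marks is printed here, with CpG sites in capitals on the plus strand. It holds 8 CpG sites in 297 bp.
Irf4, chr13:30748595-30748891: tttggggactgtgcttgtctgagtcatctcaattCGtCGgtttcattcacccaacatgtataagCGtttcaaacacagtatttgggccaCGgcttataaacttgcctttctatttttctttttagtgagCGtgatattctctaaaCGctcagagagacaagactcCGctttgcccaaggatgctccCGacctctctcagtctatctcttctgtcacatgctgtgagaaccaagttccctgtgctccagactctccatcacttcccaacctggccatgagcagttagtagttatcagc

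Irf5, which drives inflammatory cytokine genes below the Toll-like receptors, was the 1 gene of the 8 with no H3K4me3 peak at either age. Its young H3K27me3 region (chr6:29527121-29527589, 2.89-fold) and its aged H2AK119ub1 region (chr6:29527332-29527838, 3.39-fold) both lay in an intron, and they shared 258 bp. That stretch holds 14 CpG sites and is printed in the same way.
Irf5, chr6:29527332-29527589: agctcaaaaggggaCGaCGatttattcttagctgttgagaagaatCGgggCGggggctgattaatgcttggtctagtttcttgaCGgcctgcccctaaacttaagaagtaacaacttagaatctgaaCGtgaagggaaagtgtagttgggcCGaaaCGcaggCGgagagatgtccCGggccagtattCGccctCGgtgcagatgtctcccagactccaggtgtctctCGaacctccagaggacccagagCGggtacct

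The 3 genes with young H3K27me3 at the promoter thus had no listed aged H3K27me3 there, and all 3 had aged H2AK119ub1. This depended on the settings. With promoters of 500 bp on either side, only Irf4 of the 3 kept aged H2AK119ub1. With the same number of top-ranked peaks at both ages, none of the 3 had young H3K27me3 at the promoter. Over all genes, 2.97% had H3K27me3 in young HSCs only together with aged H2AK119ub1. Among the 1796 genes with H3K27me3 in young HSCs only, 648 (36.1%) had aged H2AK119ub1. Irf4 and Irf8 were bivalent in young HSCs, in the sense that both marks were listed at the promoter, against 2.96% of all genes. The H3K4me3 and H3K27me3 peaks overlapped at Irf4 (243 bp) but not at Irf8, and the lists do not show whether both marks lay in the same cells. No member was bivalent in aged HSCs (0.792%). Irf4 and Irf8 had neither of those marks in aged HSCs, against 0.966% of all genes. Of the 646 genes that were bivalent in young HSCs, 105 (16.3%) had H2AK119ub1 alone in aged HSCs as these 2 did. H3K27me3 with H2AK119ub1 was found at 1 member in young HSCs (Irf8, against 1.65%) and at none in aged HSCs (4.99%). H3K4me3 with H2AK119ub1 was found at Irf8 in young HSCs (0.403%) and at Irf2 in aged HSCs (3.16%). Both young pairs at Irf8 rest on 1 H2AK119ub1 region at the edge of the promoter. That region was not counted when 50% of a peak had to lie in the promoter or when promoters were 500 bp on either side.

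Irf3 and Irf9, the members that sit at the start and at the end of type I interferon signalling, each had an H3K4me3 peak at much the same place at both ages. At Irf3 the young peak (chr7:44997360-44997562) had 27 reads over a background of 5.94 (4.04-fold), and the aged peak (chr7:44997331-44997541) had 28 reads over 3.52 (6.41-fold). These overlapped by 182 bp. The reads at the summit thus differed by less than the background did, and the aged peak ranked above 99.4% of its list by fold. A second young peak (chr7:44997728-44997974, 4.23-fold, 20 reads) lay over the Irf3 UTR and was not found in aged HSCs. Irf3 is read away from Bcl2l12, a BCL2-family gene, across a shared start region, and all 3 of these peaks also lay at the Bcl2l12 promoter, so that the mark cannot be assigned to either gene. The aged H2AK119ub1 region of the Irf3 window (chr7:45004154-45004571, 3.19-fold) lay in an intron of the neighbouring gene Scaf1.

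At Irf9 the order was turned. The young peak over UTR and coding exon (chr14:55604210-55604774) had 24 reads over 3.70 (5.31-fold), and the aged peak (chr14:55604218-55604588) had 24 reads over 6.33 (3.41-fold). The aged peak lay wholly within the young one (371 bp). The number of reads at the summit was therefore the same, and the fold enrichment differed through the background alone. A second young peak (chr14:55603692-55603974, 4.25-fold, 19 reads) also covered a UTR of Rnf31, the next gene upstream. No Polycomb mark was listed in the Irf9 window at either age.

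**Figure D3:**
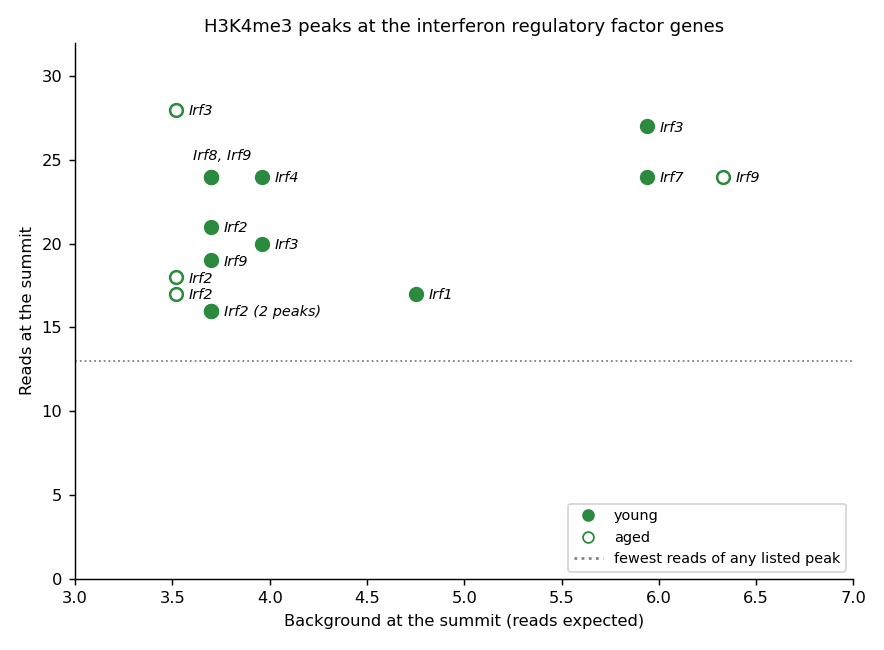
Reads at the summit (y axis) against the background expected there (x axis, reads) for the 15 H3K4me3 peaks in the windows of the 8 genes, filled for young and open for aged HSCs. The Irf3 and Irf9 peaks found at both ages sit at like heights (27 and 28 reads, and 24 and 24) and differ along the background axis. Depth is unknown, so like heights do not show like signal at both ages. The dotted line is the fewest reads of any listed peak (13).

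Irf2 had H3K4me3 at its promoter at both ages, but hardly in the same place. The young peak (chr8:46738764-46739363, 4.68-fold, 21 reads over 3.70) lay 369 bp upstream of the first start site, over an exon of Gm16675, a long noncoding RNA read in the opposite direction. The aged peak (chr8:46738498-46738764, 3.98-fold, 17 reads over 3.52) met it at 1 bp and lay 968 bp from the start site, just inside the promoter limit. Further peaks lay in introns, 2 in young HSCs (chr8:46742719-46742928 and chr8:46764521-46764720, both 3.61-fold with 16 reads) and 1 in aged HSCs (chr8:46741365-46741660, 4.20-fold, 18 reads). The aged H2AK119ub1 region (chr8:46738954-46739407, 3.24-fold) shared 410 bp with the young H3K4me3 peak and did not overlap the aged one.

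Irf1, the first IRF that interferon gamma induces, had a single young H3K4me3 peak (chr11:53770544-53770932, 3.13-fold), which started 49 bp from the nearest start site. It was the weakest H3K4me3 peak of the 8 genes by fold, with 17 reads over 4.75, and its −log10 q-value was above that of 7.62% of its list. Irf1 had no aged H3K4me3 peak and 2 aged H2AK119ub1 regions inside the gene, at chr11:53771134-53771445 (3.05-fold, at the promoter) and chr11:53774642-53775074 (2.93-fold). Irf7, which amplifies type I interferon production, had 1 young H3K4me3 peak over a start site and UTR (chr7:141265954-141266476, 3.60-fold, 24 reads over 5.94) and no other peak in any list. It was the only member with a peak in a single list.

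Of the 4 genes with H3K4me3 in young HSCs only (Irf1, Irf4, Irf7 and Irf8, against 16.3% of all genes), 3 (all but Irf7) had aged H2AK119ub1 at the promoter, against 2.70% of all genes with that pair and 16.6% of the 3564 genes with young-only H3K4me3. With promoters of 500 bp, aged H2AK119ub1 was left at Irf4 alone among Irf1, Irf4 and Irf8. H3K4me3 at both ages was found at 3 members (17.5% of all genes) and in aged HSCs only at none (5.78%). The aged peak of Irf2 was not counted at the promoter with the 50% overlap or with promoters of 500 bp, which left Irf3 and Irf9 (2 members). H3K27me3 was at both ages at 0 members (7.83%), in young only at 3 (8.22%) and in aged only at 0 (0.412%). H2AK119ub1 was at both ages at 1 member (1.50%), in young only at 0 (0.412%) and in aged only at 4 (12.5%). Every member had a peak in at least 1 list, whereas 45.0% of all genes had none. With 8 genes, a single gene makes 12.5% of the set.

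An absent H3K4me3 peak does not mean absent reads. No peak with fewer than 13 reads at the summit was listed at either age, and the young peaks with no aged partner at the promoters of Irf1, Irf4, Irf7 and Irf8 had 17, 24, 24 and 24 reads. The numbers of aged reads at these 4 places are not given by the lists. Peak by peak, 3 of the 11 young and 3 of the 4 aged H3K4me3 peaks overlapped a peak of the other age, against 31.5% and 53.1% of the whole lists. For H3K27me3 0 of 6 young regions did (15.4% of the young list), and there was no aged region to compare (66.0% of the aged list). For H2AK119ub1 1 of 1 young and 1 of 11 aged regions did, against 50.9% and 7.07%. The median fold enrichment of the member peaks was 4.23 and 4.09 for young and aged H3K4me3, beside 4.04 and 4.20 for all peaks of those lists. It was 3.02 for young H3K27me3 (3.10 for the list) and 3.24 for aged H2AK119ub1 (3.22). Single peaks lay far from the middle of their lists in both directions. By fold, the young H3K4me3 peak of Irf8 and the stronger one of Irf9 were above 92.2% of their list and the upstream aged H2AK119ub1 region of Irf4 above 94.6%, whereas the Irf1 H3K4me3 peak was above 8.58%.

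The CpG content of the start sites differed widely among the 8 genes. This content, given as observed over expected CpG in 2001 bp around the first start site, was 0.740 at Irf1, 0.735 at Irf5, 0.655 at Irf8, 0.650 at Irf2, 0.569 at Irf3, 0.388 at Irf4, 0.265 at Irf9 and 0.262 at Irf7. The median of all genes was 0.484, and that of genes with H3K4me3 was 0.640 in young and 0.641 in aged HSCs. Irf1 lay above 85.3% of all genes and Irf5 above 84.7%, yet Irf5 had no H3K4me3 peak. Irf9 and Irf7 lay above 31.1% and 30.7% of genes, below the lower quartile of genes with young H3K4me3 (0.522), and both had young H3K4me3 peaks. The members with young H3K27me3 spanned 0.388 to 0.735.

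**Figure D4:**
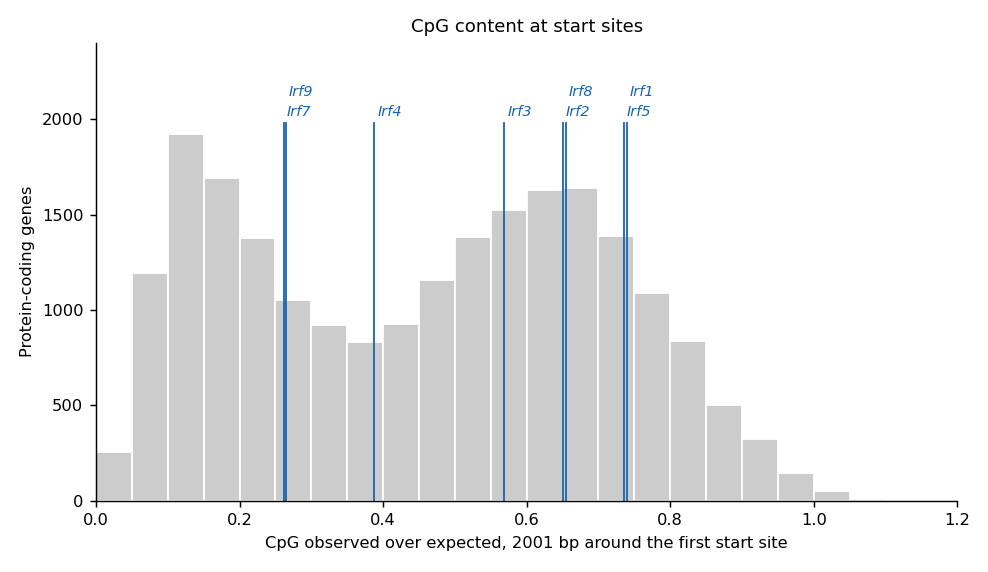
CpG observed over expected around the first start site of all 21851 protein-coding genes (grey histogram, number of genes) with the 8 IRF genes marked by lines. Irf7, Irf9 and Irf4 lie below the median of all genes (0.484) and the other 5 above it.

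The RefSeq promoters of the 8 genes (11 sequences of 300 bp in GRCm38.p6) were searched on both strands for 3 motifs. GAAANNGAAA is an ISRE-type motif, GGAANNGAAA an ETS-IRF composite of the kind bound by PU.1 with Irf4 or Irf8, and TTCNNNGAA a GAS-type motif of the kind that STAT proteins bind. They occurred in 3.44%, 2.72% and 8.30% of 32851 promoters of that length. Matches were found at 3 of the 8 genes, in 3 of their 11 promoter sequences, and 13.5% of all promoters held at least 1 of the motifs. Irf2 held all 3 motifs, as did 0.0517% of all promoters, with the ETS-IRF match 247 bp, the ISRE-type match 241 bp and the GAS-type match 224 bp before the start, the first 2 overlapping each other. Irf1 held a GAS-type match 90 bp before the start, and Irf8 held 2, at 171 and 153 bp. The 250 bp before the start are printed for these 3 genes on the strand of the gene, with the matches in capitals. A match is a description of letters and not a binding site, and none of these 3 windows overlapped an H3K4me3 peak of the lists at either age.
Irf2, chr8:46739495-46739744: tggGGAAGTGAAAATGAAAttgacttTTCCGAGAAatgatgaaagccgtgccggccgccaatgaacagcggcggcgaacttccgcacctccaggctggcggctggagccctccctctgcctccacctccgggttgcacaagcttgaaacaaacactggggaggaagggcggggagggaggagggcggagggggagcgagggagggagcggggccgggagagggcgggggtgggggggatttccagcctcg
Irf1, chr11:53769764-53770013: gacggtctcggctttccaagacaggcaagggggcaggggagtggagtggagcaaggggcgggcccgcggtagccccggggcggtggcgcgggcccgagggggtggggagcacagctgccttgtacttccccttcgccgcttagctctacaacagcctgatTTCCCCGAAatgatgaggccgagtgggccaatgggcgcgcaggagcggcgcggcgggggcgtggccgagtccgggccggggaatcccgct
Irf8, chr8:120736108-120736357: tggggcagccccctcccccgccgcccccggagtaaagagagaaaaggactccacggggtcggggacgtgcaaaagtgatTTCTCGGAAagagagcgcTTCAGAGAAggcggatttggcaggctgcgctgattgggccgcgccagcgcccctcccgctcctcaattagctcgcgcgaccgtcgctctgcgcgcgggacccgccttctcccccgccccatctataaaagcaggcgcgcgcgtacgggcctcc

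The other genes of the interferon pathway gave a background of related function. Of 78 listed genes 77 were found, since Mx2 is not protein-coding in this annotation. H3K4me3 was at 41 of the 77 promoters (53.2%) in young and 32 (41.6%) in aged HSCs, against 33.8% and 23.3% of all genes. It was at 26 promoters at both ages, 15 in young only and 6 in aged only (17.5%, 16.3% and 5.78% of all genes). H3K27me3 was at 4 and 1 of them, and H2AK119ub1 at 0 and 8. The aged H2AK119ub1 share was thus 10.4% in the pathway, beside 62.5% in the IRF genes and 14.0% over all genes, and that difference was not tested. The direction of the pathway's H3K4me3 counts turned when the same number of peaks was kept at both ages (30 in young and 32 in aged).

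**Figure D5:**
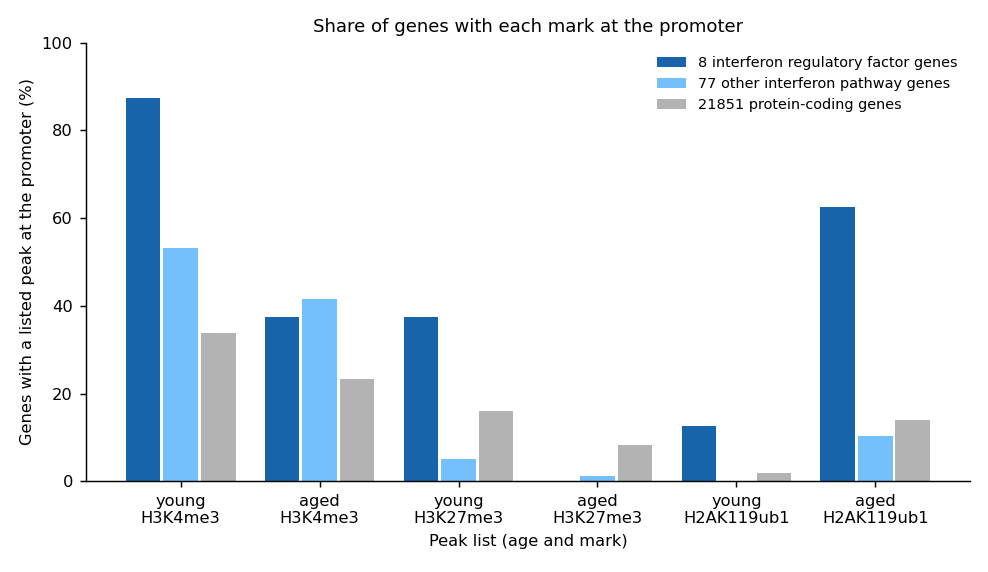
Percentage of genes with a listed peak at the promoter (y axis) in each of the 6 lists for the 8 IRF genes, 77 other interferon pathway genes and all 21851 protein-coding genes. The IRF bars stand highest in young H3K4me3 (87.5%) and aged H2AK119ub1 (62.5%), and there is no IRF bar for aged H3K27me3.

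By role, the interferon and receptor genes had H3K4me3 at 3 of 8 promoters in young and 5 of 8 in aged HSCs. The set includes the interferon genes Ifnb1 and Ifng, which had no listed peak at the promoter. Both chains of the type I interferon receptor (Ifnar1 and Ifnar2) had H3K4me3 at both ages. Sensors, adapters and kinases had it at 9 of 18 at each age, among them Ddx58, which encodes RIG-I, and Tbk1, the kinase that activates Irf3. Negative regulators had it at 5 of 6 in young and 2 of 6 in aged HSCs, and Socs1 and Socs3, which block cytokine receptor signalling, were among the 3 with young H3K4me3 alone and had aged H2AK119ub1. Interferon targets had it at 21 of 33 in young and 12 of 33 in aged HSCs, and all 12 were also among the 21. These 12 include Ifit1, an antiviral effector, Psmb8, an immunoproteasome subunit, and Tap1, a peptide transporter. IRF partners had it at 1 of 7 in young (Irf2bp2, a corepressor of Irf2) and 2 of 7 in aged HSCs (Batf and Batf3, which pair with Irf4 and Irf8). Over all genes, H3K4me3 was at 33.8% of promoters in young and 23.3% in aged HSCs, with 17.5% at both ages and 16.3% in young only. The roles hold few genes, and none was tested against these shares.

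The genes most like each member were those with the identical presence in the 6 lists at the promoter. Irf3 and Irf9 shared their pattern, H3K4me3 at both ages alone, with 24 pathway genes, of which Ifnar1, Ifnar2, Tlr4 and Ddx58 come first in the list, and with 3283 of all genes (15.0%, both members included). Irf7 shared H3K4me3 in young HSCs alone with 12 pathway genes, led by Ticam1, Ikbke, Ptpn6 and Irf2bp2, and 2817 of all genes (12.9%). Irf1 shared its pattern with Socs1 and Socs3 (300 of all genes, 1.37%) and Irf2 with Trim25 (308, 1.41%). No pathway gene shared the patterns of Irf5 (387, 1.77%), Irf4 (95, 0.435%) or Irf8. The Irf8 pattern was found at 10 of 21851 genes (0.0458%). It rests on the young H2AK119ub1 region, which was not counted at the promoter when 50% of a peak had to lie there or when promoters were 500 bp on either side, and Irf8 then had peaks in no more lists than Irf4.

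The labelled cell type was checked against marker genes. H3K4me3 was at 9 of 12 HSC markers in young and 8 of 12 in aged HSCs, against 33.8% and 23.3% of all genes. Procr, Mecom, Meis1, Hlf, Tal1 and Ptprc were among those with it at both ages, and Kit had it in aged HSCs only. Ly6a and Slamf1, which encode the sorted markers Sca-1 and CD150, had no H3K4me3 peak at either age. Cd34, counted among the 12, had an H3K4me3 peak in young HSCs only, although the cells were sorted as CD34-. No HSC marker had H3K27me3 (16.0% of all genes in young and 8.24% in aged HSCs) or H2AK119ub1 (1.91% and 14.0%). H3K4me3 was at 0 of 4 T cell and 0 of 5 granulocyte and monocyte markers at either age, and at 1 of 5 B cell markers (Cd79b, young). Sets of 4 or 5 genes are too small to be told apart from the shares of all genes.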

How the data were processed

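The authors cross-linked HSCs, fragmented chromatin with sonication and micrococcal nuclease, immunoprecipitated 3 marks and aligned single reads to mm10 with Bowtie2. MACS2 2.2.6 is named in the submitters' processing notes, and its use for these lists is not given elsewhere in the sources used here. The deposited lists give each peak's fold enrichment as a linear ratio with the −log10 p-value and −log10 q-value, as the peak caller wrote them. The score column that the authors deposited restates the q-value and was not used. For H3K27me3 and H2AK119ub1 these are averages over a broad region. H3K4me3 peak names carry a q-value of 0.05 and a pair of library numbers, and broad names carry 0.1 and a single number, so it is uncertain that both libraries entered each broad list. Per the file headers none of the lists gives reads per library, so depth is unknown. For H3K4me3, reads at each summit and the background were recovered from fold and p-value under the Poisson model of MACS (100% of peaks, tolerance 0.001 in −log10 p). Recovery and overlaps were tested on simulated data.

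Peaks on scaffolds (11) were set aside. A mark was assigned to a gene where at least 1 bp of a peak lay in a promoter (41438 start sites of the GENCODE M21 basic set). Computation used Python 3.11.15 and pysam 0.24.0, and bedtools 2.31.1 gave the same gene counts. The members and gene lists were chosen with earlier results of these data known. The text names all 8 members with every peak in their windows, genes whose promoters such a peak overlaps, up to 4 pathway genes (in list order) with a member's pattern, and marker genes with or without H3K4me3. Pathway genes named by role, and genes named as neighbours of a peak, were chosen after their values were seen. Alternatives changed the q-value, the number of peaks, the overlap, the promoter, the start sites and the window. Some listed pathway and marker genes are not reported here.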

Additional observations from a re-analysis of the deposited data

How the results depend on the processing

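No paired analysis was possible because the lists pool the replicates (1 list for a mark at an age), and for the same reason no replicate could be left out. The number of member promoters with a listed H3K4me3 peak was higher in young than in aged HSCs under every alternative run that counted promoters. A stricter −log10 q-value (3 or more) left the members with 0 H3K27me3 and 0 H2AK119ub1 regions (0 promoters, 0 windows, 0 bp, 0 regions found at the other age, 0 pairs of marks), and the pathway with 1 young and 0 aged H3K27me3 promoters and 0 aged H2AK119ub1 promoters. Keeping the same number of peaks left young H3K27me3 at 0 member promoters and 1 window (1 region, 721 bp) and at 1 pathway promoter. Aged H2AK119ub1 was then at 1 promoter and 1 window (1 region, 392 bp) and at 0 pathway promoters, with 0 regions found at the other age and 0 members with either pair of marks in young HSCs. The pathway's H3K4me3 count became 30 in young and 32 in aged HSCs, so its direction turned.

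With an overlap of at least 50%, or with promoters of 500 bp, aged H3K4me3 was at 2 member promoters, without Irf2. With the 50% overlap, young H2AK119ub1 was at 0 member promoters, 0 members had it with H3K27me3, and 1 pathway gene had young H3K27me3. With promoters of 500 bp, young H2AK119ub1 was at 0 members and aged H2AK119ub1 at 2 members (Irf2 and Irf4) and 2 pathway genes. With that width 0 members had young H3K27me3 with H2AK119ub1. With promoters of 2 kb, 1 pathway gene had young H2AK119ub1. Searching the gene body alone left 2 aged H3K4me3 peaks (667 bp), with 1 peak at each age found at the other, 2 young H3K27me3 regions (2029 bp), 0 young H2AK119ub1 regions (0 members, 0 bp, 0 found at the other age) and 6 aged ones (2709 bp, 0 found at the other age). With 20 kb on either side there were 19 young and 10 aged H3K4me3 peaks (6054 and 2801 bp, 7 shared at each age), 7413 bp of young H3K27me3 (1 region shared), 1 aged H3K27me3 region (1 member, 756 bp, 1 shared), 2 young H2AK119ub1 regions (2 members, 705 bp) and 17 aged ones. The H3K27me3 regions gained there lay near Kcp and Sct. Joining peaks closer than 1 kb made 3 young H3K27me3 regions. In all 151 values stayed within 1.5 times those reported and 71 did not. Using start sites of all transcripts changed no member count.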
